A study of Homo sapiens with 56 samples.

Results

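OVCAR5 is one of 28 ovarian cancer cell lines whose RNA was profiled in duplicate, on 56 Affymetrix Human Gene ST arrays in all, in a study of epithelial and mesenchymal states. The 2 arrays labelled OVCAR5 were set against 51 arrays of the other 27 lines, over 18377 genes. OVCAR5 was grown in RPMI 1640 with 10% fetal bovine serum and 10 µg/ml insulin, no line was treated, and 8 of the other lines were also grown in RPMI 1640. Of these, OVCAR2 had the same serum and insulin as OVCAR5, and OVCAR3 had 20% serum with the same insulin. The other RPMI lines had no insulin in their labels, and EFO21 among them had 20% serum. The remaining 19 lines were grown in other media. Of those, OV17R, OV56 and OV7 had the same insulin as OVCAR5 with less serum, and OAW28 and OAW42 had less insulin. UWB1.289 had less serum than OVCAR5 and no insulin in its labels. All values are log2 intensities, so that a difference of 1 is a doubling. Unless given as between lines, p-values measure only the spread between these arrays, since the labels do not tell whether duplicates were grown as separate cultures. Those between lines are set against the spread of the line means.

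The arrays HEYC2 replicate 1, OV56 replicate 2 and OVCA420 replicate 1 were not used. They correlated over genes at 0.748, 0.806 and 0.615 with the other array of their own line, but at 0.936, 0.936 and 0.917 with an array of another line among the 3. The OVCAR5 arrays correlated at 0.990 with each other, which ranked 21 of the 25 lines with 2 arrays in use, and their median absolute difference over genes was 0.190. By the correlation of line means over the 18377 genes, which share one normalization, the nearest lines to OVCAR5 were HEY (0.950), HEYC2 (0.945) and OV7 (0.939).

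The epithelia of the fallopian tube, endometrium and endocervix derive from the Müllerian duct, and most ovarian carcinomas resemble them. PAX8 and SOX17 are transcription factors of that lineage, and MUC16 (the CA125 antigen) and mesothelin are surface proteins used as markers of it. In the gut, CDX1, CDX2 and the FOXA and GATA factors direct epithelial identity, while villin, cadherin 17, keratin 20, mucins and trefoil factors mark mature absorptive or secretory cells. Both programmes were followed in OVCAR5 with lists of 93 gastrointestinal genes, of which 85 were measured, and 33 Müllerian genes, of which 29 were measured.

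Müllerian genes were low in OVCAR5 and gastrointestinal genes lay near the average of the other lines. A gene was called where limma's adjusted p over all genes was under 0.05 against the spread between duplicate arrays and the difference from the mean of the 27 other lines was at least 1. By this rule 572 genes (3.11% of those tested) were higher and 645 (3.51%) were lower in OVCAR5. Of the 29 Müllerian genes, 9 (31.03%) were lower, 0 were higher and 25 lay below the mean of the other lines, with a median difference of -0.55 beside 0.0009 over all genes. Of the 85 gastrointestinal genes, 1 (1.18%) was higher, 3 (3.53%) were lower and 48 lay below the mean, with a median difference of -0.05. In bulk RNA such as this, fewer cells expressing a gene and less of its RNA per cell cannot be told apart.

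**Figure D1:**
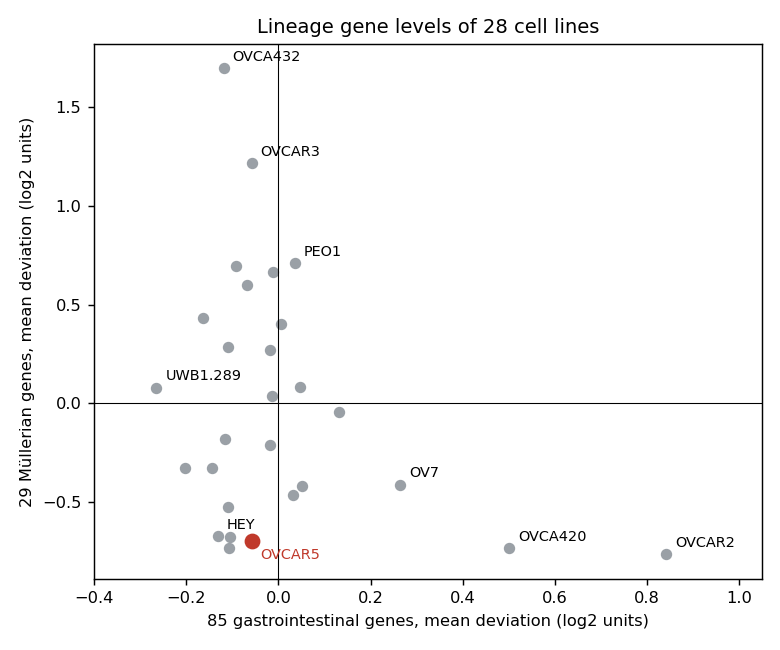
Each point is 1 of 28 cell lines. The horizontal axis is the mean deviation of 85 gastrointestinal genes and the vertical axis that of 29 Müllerian genes, each gene set against its mean over lines, in log2 units. OVCAR5 (red) lies at -0.06 and -0.70, among the lines low in Müllerian genes and away from OVCAR2, which is highest in gastrointestinal genes at 0.84.

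Averaged over the 85 gastrointestinal genes, the deviation of OVCAR5 was -0.06, which tied with OVCAR3 at rank 14 of 28. The highest were OVCAR2 (0.84) and OVCA420 (0.50), and the lowest was UWB1.289 (-0.26). Averaged over the 29 Müllerian genes, OVCAR5 stood at -0.70 and rank 25. The lines below it were HEYC2 (-0.73), OVCA420 (-0.73) and OVCAR2 (-0.76), and the highest was OVCA432 (1.69). OVCAR2 had the highest value of all lines for 27 of the 85 gastrointestinal genes, and OVCAR5 for 1. These means over genes are descriptions, and differences between neighbouring lines were not tested.

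Among the gut transcription factors, none of 18 was called. CDX2, the homeobox factor of intestinal identity, read 7.01 and 6.94 in OVCAR5, against 6.43 to 7.56 with a median of 6.65 in the other lines. CDX1 read 7.32 and 6.78 against a range of 6.93 to 7.41, so that the lower duplicate lay under every other line mean and the higher near the top. FOXA1 (6.91 and 6.56), FOXA2 (7.09 and 7.19) and GATA6 (7.63 and 7.15) fell within the range of the other lines. FOXA2 ranked 3 of 28 and differed by 0.43 ± 0.11 (SE), with a limma adjusted p of 0.00192, below the minimum difference set for a call. GATA4, a factor of foregut and also of gonadal tissue that was named here after its value was seen, was the single gut gene for which OVCAR5 ranked first, at a mean of 7.18 against 6.38, a difference of 0.80 that was not called.

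Of 34 genes of absorptive cells and the brush border, 1 (2.94%) was higher and 3 (8.82%) were lower, beside 3.11% and 3.51% over all genes. Keratin 20 (KRT20), an intermediate filament of mature intestinal cells, was the exception, at 7.50 and 7.72 against a range of 4.31 to 8.53 with a median of 4.88. It was higher by 2.50 ± 0.16 (SE, limma adjusted p 6.96e-16), and TOV112D was the highest line. Against the spread between lines rather than arrays, with OVCAR5 as 1 value beside 27 line means, its adjusted p was 0.636. Among the RPMI lines alone the KRT20 difference was 2.77 and it passed that test. That comparison leaves out TOV112D (8.53) and OVCA420 (8.20), the lines above OVCAR5 in KRT20, which were grown in other media.

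No other gene of absorptive cells or the brush border was called higher. Villin (VIL1), which bundles microvillar actin, read 4.93 and 4.71, below the median of 4.96, while OVCAR2 reached 9.36. Cadherin 17 (CDH17), an intestinal adhesion protein, read 3.75 and 3.46 against a median of 3.64 and 9.20 in OVCAR2. LGALS4, a gut galectin, read 5.99 and 5.87 against a median of 6.12 and 9.88 in OVCA420. For these 3 genes both OVCAR5 arrays stayed among the bulk of the lines, whereas 1 or more lines stood clear of it. Other structural members, named after their values were seen, lay above the mean without being called, with USH1C at 5.84 and 5.59 (difference 0.35), MYO1A at 5.05 and 4.88 (0.18) and CDHR5 at 6.17 and 6.13 (0.14), each at rank 3, while CDHR2 (4.94 and 4.88, -0.41) ranked last. CEACAM5, the carcinoembryonic antigen, read 4.49 and 4.64 and its relative CEACAM6 5.16 and 5.27, with OVCA420 highest at 7.15 and 10.30.

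The 3 members that were lower are enzymes also made outside the gut. Carbonic anhydrase 2 (CA2) read 5.96 and 6.15 against a mean of 7.70 and was lower, with a difference of -1.65 (SE 0.21, limma adjusted p 9.26e-08). Aminopeptidase N (ANPEP) read 5.99 and 5.96 and differed by -1.51. Dipeptidyl peptidase 4 (DPP4) read 5.58 and 5.74 against a median of 6.60, ranked 18 and differed by -1.03. The DPP4 difference fell short of the minimum with all 56 arrays (-0.98), after further quantile normalization (-0.98) and among RPMI lines (-0.57). It also did so without OV56 replicate 1 (-0.92) and without OVCAR5 replicate 1 (-0.96).

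None of 33 mucin and secretory genes was called, with a median difference of -0.01. The gel-forming mucin MUC2 read 6.03 and 5.54, on either side of the other line means, which spanned only 5.56 to 5.95. The membrane mucin MUC13 read 3.14 and 3.06, against 8.69 in OVCAR2. The trefoil factors, small peptides that protect mucosa, read 6.20 and 6.41 for TFF1, 5.97 and 5.43 for TFF2, and 5.60 and 5.42 for TFF3, each with OVCAR2 highest. AGR2, a disulfide isomerase of secretory cells, read 5.15 and 5.25 against a median of 4.68 and 10.90 in OVCAR2. TSPAN8, a tetraspanin of gut epithelium, read 3.28 and 3.58 against 8.76 in OV7. OVCAR5 lay far below the highest line for MUC13, TFF1, AGR2 and TSPAN8, while for MUC2 the spread over lines was smaller than the gap between the OVCAR5 arrays. Of 14 liver and pancreas genes, SERPINA1, the plasma protease inhibitor alpha-1-antitrypsin, was higher (7.72 and 7.92 against a mean of 6.55), 0 were lower and the median difference was -0.14.

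**Figure D2:**
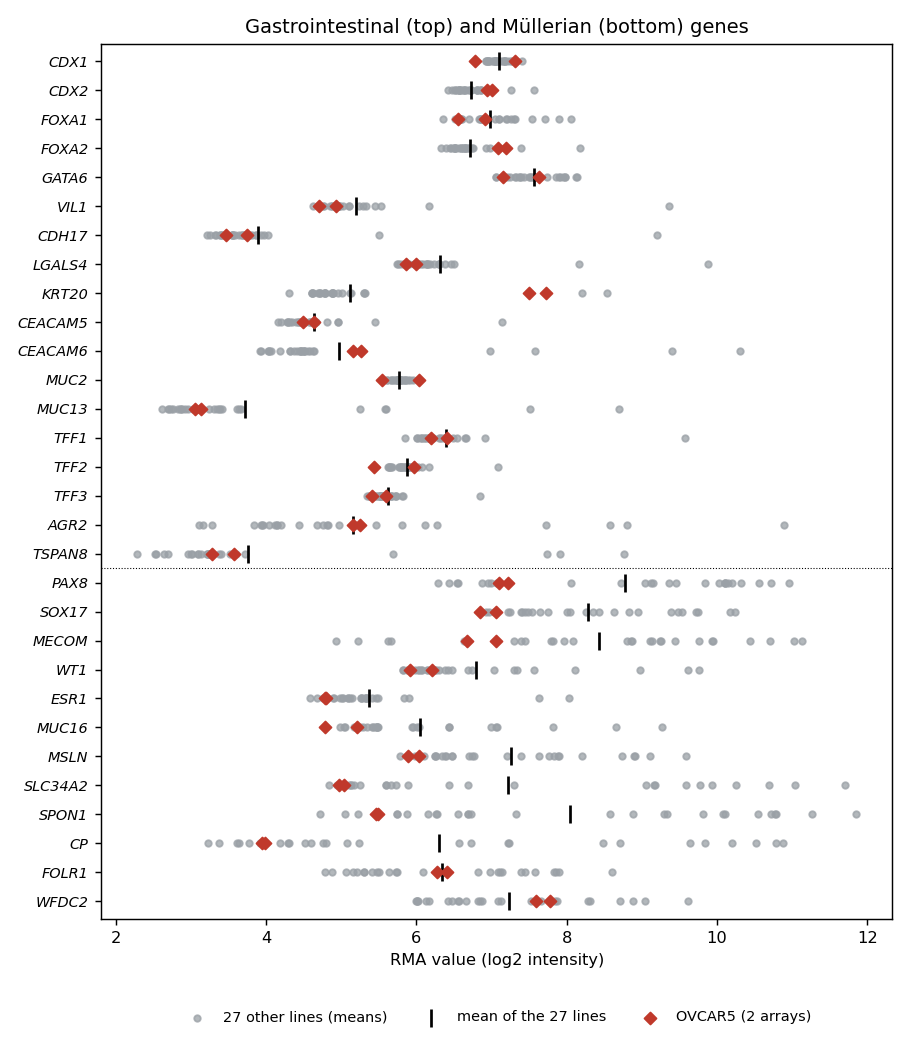
Each row is a gene, gastrointestinal above the dotted line and Müllerian below it, and the horizontal axis is the RMA value in log2 units. Grey points are means of the 27 other lines, the black tick is their mean, and red diamonds are the 2 OVCAR5 arrays. OVCAR5 sits toward the low end for PAX8, SOX17, MUC16, MSLN, SLC34A2 and SPON1, and among the gut genes lies far to the right of the mean only for KRT20.

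All 12 Müllerian transcription factors lay below the mean of the other lines, and 3 were called lower. PAX8 read 7.22 and 7.10 against a range of 6.29 to 10.95 with a median of 9.15, and was lower with a difference of -1.61 (SE 0.18, limma adjusted p 7.09e-09). It ranked 19 of 28, so that 9 lines read lower still. SOX17 read 7.07 and 6.85 against a median of 8.05, ranked 27 above CAOV3 alone, and differed by -1.33 (SE 0.12). Within the RPMI lines the SOX17 difference was -0.997, just under the minimum set for a call. MECOM, a zinc finger factor encoded in a region often gained in serous carcinoma, read 6.67 and 7.06 and differed by -1.56. WT1, a marker of serous carcinoma, read 6.20 and 5.92 against a median of 6.30 and a highest value of 9.76 in OV17R, and its difference of -0.73 was not called. The oestrogen receptor ESR1 read 4.80 and 4.79, rank 25, and its difference of -0.58 was not called either.

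Of the 17 surface and secreted proteins of Müllerian or serous cells, 6 were called lower, 0 higher and 11 were not called. MUC16 read 5.22 and 4.79, rank 27, against a median of 5.48 and 9.27 in PEO1. Its difference of -1.04 fell to -0.83 without OVCAR5 replicate 2 and was then not called. Mesothelin (MSLN) read 5.90 and 6.03, rank 27, against a median of 6.77, and differed by -1.30 (SE 0.15, limma adjusted p 3.73e-09). Both proteins are followed as markers of ovarian carcinoma in blood or tissue, and both OVCAR5 means lay within the range set by the other lines.

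The largest differences of the group were in SPON1, a matrix protein, and CP, the copper carrier ceruloplasmin. SPON1 read 5.47 and 5.49 against 4.72 to 11.86 and differed by -2.56. CP read 3.95 and 3.99 against 3.23 to 10.89 and differed by -2.33. The phosphate transporter SLC34A2 read 5.04 and 4.98, rank 26, and differed by -2.21, and the adhesion molecule L1CAM, named after its value was seen, was the sixth, at a mean of 6.10 and a difference of -1.21. The group did not move as one. The folate receptor FOLR1 read 6.41 and 6.28, a difference of 0.00 to 2 decimals, and WFDC2, the HE4 antigen, read 7.77 and 7.60, above the median of 6.88, with a difference of 0.46 that was not called.

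No gastrointestinal or Müllerian gene was called against the spread between lines, and in none did both OVCAR5 arrays lie above, or both below, all 51 other arrays. By that test, limma on 28 line means with an adjusted p under 0.05 and the same minimum difference, 27 genes (0.147%) were higher and 19 (0.103%) lower in OVCAR5 over the whole array, and 921 had an unadjusted p under 0.05.

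On the epithelial to mesenchymal axis OVCAR5 showed some genes of each state. Among 18 genes of simple epithelium, 2 (11.11%) were lower, GRHL2 and CLDN3, and 0 were higher, beside 3.51% and 3.11% over all genes. GRHL2, a transcription factor that maintains epithelial junctions, read 5.26 and 5.35 against a range of 4.02 to 10.53, with a median of 5.99. It ranked 25 and differed by -1.30 (SE 0.25), and EFO21, HEY and OV17R lay close to OVCAR5 at 5.42. The tight junction protein CLDN3 read 7.41 and 7.39 against a median of 8.10, also rank 25, and differed by -1.23. HEYC2 (7.11) and HEY (7.20) were lower still in CLDN3. The adhesion proteins EPCAM (8.77 and 9.02) and E-cadherin (CDH1, 7.45 and 7.56) and keratin 7 (KRT7, 10.39 and 10.38) ranked 16, 12 and 13, and none was called.

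Among 12 mesenchymal genes, 4 (33.33%) were higher and 2 (16.67%) lower, beside 3.11% and 3.51% over all genes. The receptor tyrosine kinase AXL read 11.64 and 11.68, above all 51 other arrays, and was higher by 2.75 ± 0.09 (SE, limma adjusted p 3.17e-25). OVCA433 (11.41), HEY (11.30) and HEYC2 (11.02) were also high, and against the spread between lines its limma adjusted p was 0.9996. The matrix protein TGFBI read 11.51 and 11.56, second to OV7, and was higher by 2.92. Vimentin (VIM, 10.93 and 11.11) differed by 1.10 but ranked only 14, with OAW28 as low as 4.81, and it was not called without OVCA420 replicate 2 (0.95). ZEB1, a repressor of epithelial genes named after its value was seen, was the fourth, with a difference of 1.10. In contrast, N-cadherin (CDH2), the usual mesenchymal cadherin, read 5.51 and 5.25 against a median of 9.28 and was lower, with a difference of -3.73 and rank 27. Fibronectin (FN1, 8.24 and 8.44) was lower with a difference of -1.28, which became -0.53 and was not called among RPMI lines.

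Genes beyond every other line were those for which both OVCAR5 arrays lay above, or both below, each of the 51 other arrays. There were 262 above (1.43%) and 167 below (0.909%). With the 3 unused arrays included these were 156 and 91. Since the genes were chosen by these values, what follows on them is description, and the p-values given with them add no support. Their margin is the distance from the nearer OVCAR5 array to the nearest other array, and it was at least 1 for 7 genes above and 16 below. Just inside the limit, 13 genes above and 11 below had a margin under 0.01, and just outside it 6 and 5 missed by less than 0.01. Counted for each of the 25 lines with 2 arrays in use, genes above ran from 112 in OVCA433 to 585 in FUOV1 and OVCAR5 ranked 18, and those below ran from 74 in JHOS3 to 656 in FUOV1 and OVCAR5 ranked 10.

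Of the 262 genes above, 136 were called higher against the spread between arrays and 25 against the spread between lines. Of the 167 below, 120 and 19 were called lower, so that all 19 genes lower by the test between lines lay below every other array. Among RPMI lines alone, 18 of the genes named here that passed the test between lines no longer did, while LDHB, ZNF845, NFE4, MX2 and RNASE1 still passed.

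**Figure D3:**
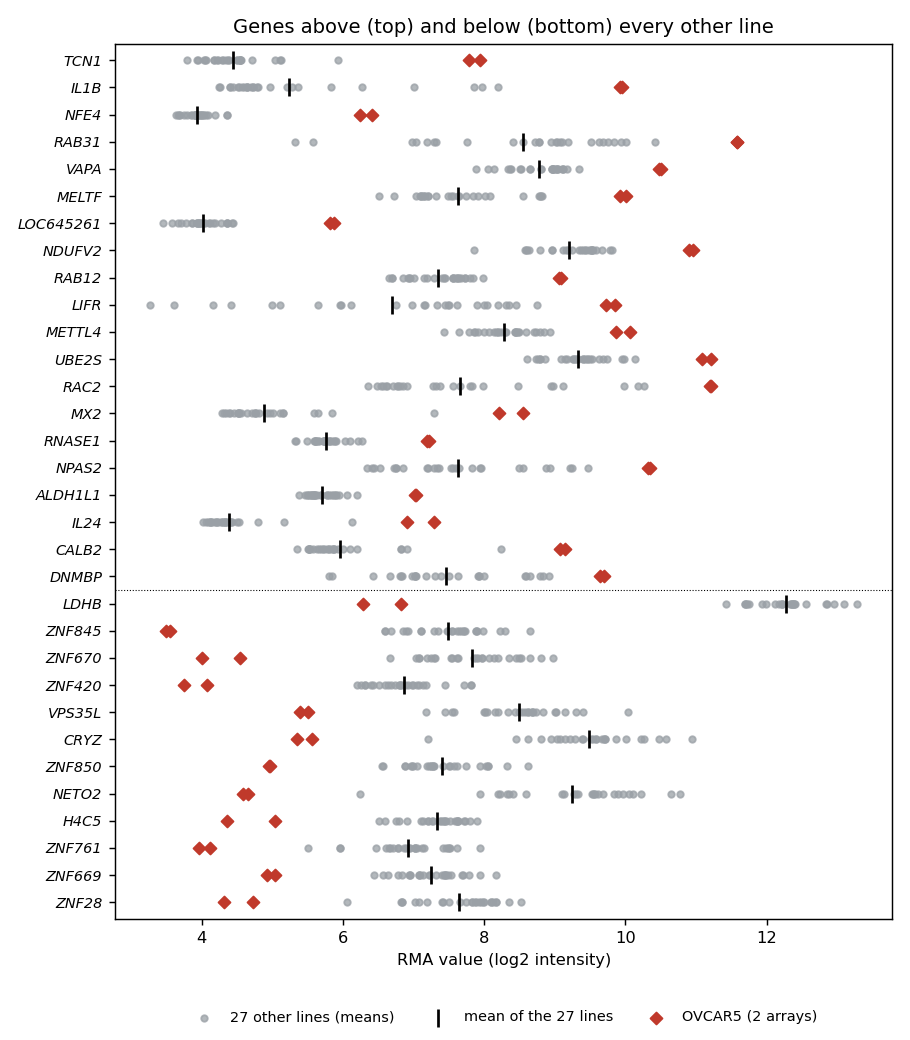
Each row is a gene, with the 20 of largest margin above every other array over the dotted line and the 12 of largest margin below every other array under it. The horizontal axis is the RMA value in log2 units, grey points are means of the 27 other lines, the black tick is their mean and red diamonds are the 2 OVCAR5 arrays. The widest gap is that of LDHB, at 6.82 and 6.28 against 11.42 in the next line.

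LDHB showed the largest fall among all 18377 genes. LDHB encodes the B subunit of lactate dehydrogenase, the enzyme that interconverts pyruvate and lactate, and is abundant in most cells. It read 6.82 and 6.28 in OVCAR5 and between 11.42 (SKOV3) and 13.28 (OAW28) in the others, with a median of 12.33. The difference was -5.72 (SE 0.09), with a limma adjusted p of 1.21e-32 against the spread between arrays and 4.8e-09 against that between lines. Its partner LDHA, which encodes the A subunit and was named after its value was seen, read 12.75 and 12.84 against a mean of 12.42, ranked 10, and was not called. The 150 bases upstream of the RefSeq start of LDHB (GRCh38.p14, chr12:21657843-21657992, minus strand), with CpG dinucleotides in capitals because CpG content upstream of genes is compared below, read:
LDHB: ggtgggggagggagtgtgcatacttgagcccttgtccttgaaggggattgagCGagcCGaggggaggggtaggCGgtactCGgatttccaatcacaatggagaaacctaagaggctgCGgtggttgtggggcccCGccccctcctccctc
Over 250 upstream bases LDHB had 9 CpG and an observed to expected ratio of 0.443.

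Of the 12 genes with the largest margin below, 7 were named ZNF, the symbol of zinc finger proteins. Many ZNF genes encode a run of C2H2 fingers that bind DNA together with a KRAB domain that recruits the corepressor TRIM28, and they lie in clusters, chiefly on chromosome 19. ZNF845 read 3.49 and 3.55 against 6.59 to 8.65, a difference of -3.97 (SE 0.15). ZNF670 read 4.004 and 4.54 against 6.66 to 8.97, and ZNF420 read 4.08 and 3.74 against 6.20 to 7.82. For these 3 the OVCAR5 arrays were 1.75 or more below the nearest other array. ZNF850 (4.97 and 4.94), ZNF761 (4.12 and 3.96), ZNF669 (5.04 and 4.93) and ZNF28 (4.31 and 4.72) differed by -2.45, -2.89, -2.26 and -3.13. All 7 passed the test between lines, with adjusted p from 0.000108 for ZNF845 to 0.0224 for ZNF850, and with all 56 arrays ZNF670, ZNF850 and ZNF669 no longer did.

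Over all 438 genes named ZNF and a number, 78 (17.81%) were lower and 10 (2.28%) higher, beside 3.51% and 3.11% over all genes. Of these ZNF genes, 38 lay below and 11 above every other array, where the shares over all genes were 0.909% and 1.43%. The 221 on chromosome 19 held 64 of those lower (28.96%) and 30 of the 38 below every array. The 217 elsewhere held 14 lower (6.45%), and the 1085 other genes of chromosome 19 held 16 (1.47%). The counts were made after the 12 genes had been seen. Genes within a cluster share sequence, and how well the probe sets separate them was not tested.

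**Figure D4:**
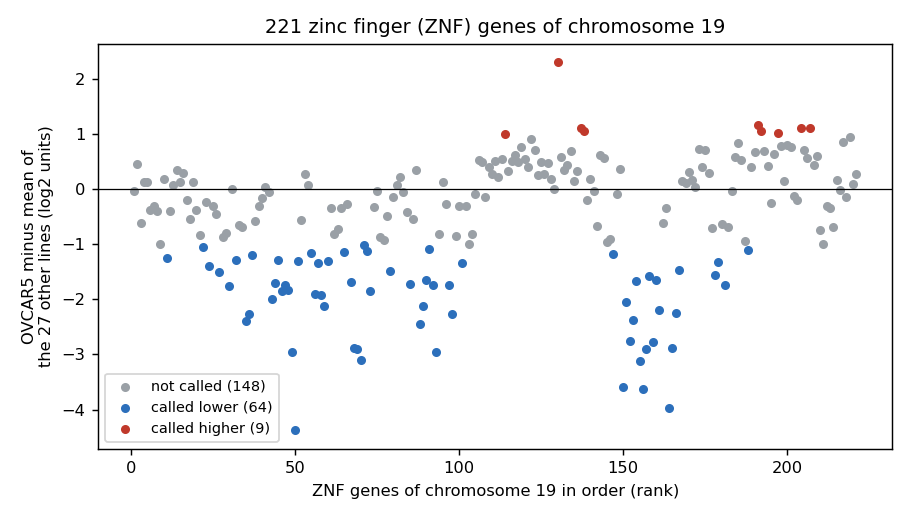
Each point is 1 of 221 ZNF genes of chromosome 19, placed by its rank in gene order. The vertical axis is the OVCAR5 value minus the mean of the 27 other lines in log2 units. The 64 genes called lower (blue) lie mostly in runs, while the 9 called higher (red) do not exceed 2.30.

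The lower genes fell in runs of neighbours, which were delimited after their values were seen. All 10 protein-coding genes from ZNF808 to ZNF160 were lower, with a median difference of -2.76, and 6 of them lay below every other array. In this run ZNF468 read 3.31 and 3.66 against 5.02 to 8.02, ZNF808 read 4.41 and 4.79 against 5.58 to 9.32, and ZNF160 read 5.14 and 4.40 against 6.36 to 8.66. Each of these had FUOV1 as the next lowest line. From ZNF486 to ZNF254, 19 of 27 genes (70.37%) were lower, with a median of -1.30. From ZNF382 to ZNF571, 10 of 19 (52.63%) were lower, with a median of -1.08, beside 3.51% lower over all genes. The largest single difference among ZNF genes was in ZNF626, which read 3.27 and 3.60 against a median of 8.25, with FUOV1 lower still at 2.91. TRIM28 itself, named after its value was seen, read 11.68 and 11.72 against 10.33 to 11.55, above every other array, with a difference of 0.87 that was not called.

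The sequence upstream of these genes was then compared. A window of 250 bases before the RefSeq start was counted as CpG-rich where its GC content was over 50% and its observed to expected CpG ratio over 0.6, and 14210 genes had such a window in the RefSeq table. Of these, 8823 (62.1%) were CpG-rich. The share was 62.6% (311 of 497) among all genes called lower, 60.7% (266 of 438) among those called higher and 74.3% (101 of 136) among those below every other array. Among ZNF genes that were not called the share was 78.4% (228 of 291), and among ZNF genes called lower it was 50.7% (36 of 71). The windows of ZNF845 and ZNF420, which had the largest margins below on chromosome 19, are both CpG-rich, with 23 and 25 CpG and ratios of 0.88 and 0.855. The 150 bases nearest the start are shown for both (GRCh38.p14, plus strand, chr19:53333599-53333748 for ZNF845 and chr19:37078283-37078432 for ZNF420), with CpG in capitals.
ZNF845: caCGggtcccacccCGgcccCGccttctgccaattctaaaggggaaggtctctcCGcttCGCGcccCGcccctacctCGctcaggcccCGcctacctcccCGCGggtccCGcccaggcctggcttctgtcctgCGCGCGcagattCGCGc
ZNF420: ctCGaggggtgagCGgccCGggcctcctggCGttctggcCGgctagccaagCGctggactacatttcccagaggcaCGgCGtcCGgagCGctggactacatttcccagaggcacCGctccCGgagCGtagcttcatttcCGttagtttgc
No methylation was read here, and the shares describe these windows only.

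The remaining 4 genes of the 12 had separate functions. VPS35L, a subunit of the retriever complex that recycles membrane proteins from endosomes, read 5.38 and 5.50 against 7.18 to 10.04. CRYZ, a quinone oxidoreductase, read 5.34 and 5.56 against 7.20 to 10.95. NETO2, an accessory protein of kainate receptors, read 4.65 and 4.58 against 6.24 to 10.78 and had the second largest fall of the 12, at -4.62. H4C5, one of the histone H4 genes, read 4.35 and 5.03 against 6.51 to 7.90. All of these passed the test between lines, with adjusted p of 0.0216, 0.0057, 0.0212 and 0.000225, and VPS35L no longer did with all 56 arrays (0.0851).

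The genes above every other array began with TCN1, IL1B and NFE4. TCN1 encodes haptocorrin, a secreted carrier of vitamin B12. It read 7.78 and 7.93 against 3.78 to 5.92, the largest margin above (1.79), and differed by 3.42 (SE 0.20, limma adjusted p 5.24e-16 between arrays and 0.000108 between lines). NFE4, a regulator of fetal globin genes, read 6.24 and 6.40 against 3.63 to 4.36 and had the smallest p of the 20 between lines (3.56e-09). In both, the other lines formed a group with no line as far from it as OVCAR5.

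The 20 included the cytokine genes IL1B and IL24 and the receptor gene LIFR. Interleukin 1 beta (IL1B) read 9.96 and 9.92 against 4.24 to 8.19, with a median of 4.72, and differed by 4.70 (SE 0.13). Against the spread between lines its adjusted p was 0.0897, and with HEY and HEYC2 taken as 1 line it passed. HEY (8.19), OVCA433 (7.96) and HEYC2 (7.85) were also high in IL1B. Interleukin 24 (IL24) read 6.91 and 7.28 against 4.02 to 6.12. The LIF receptor (LIFR), which signals through gp130, read 9.72 and 9.86 against 3.27 to 8.75, a difference of 3.10. LIFR did not pass the test between lines (limma adjusted p 0.9996). IL1A, which encodes interleukin 1 alpha and was named after its value was seen, had the largest rise of all 18377 genes, 5.28 (SE 0.18), at 10.66 and 10.86, but the mean of EFO21 reached 10.65 and the groups overlapped. Other cytokine genes looked up alongside them were not called: IL6 read 6.42 and 6.37 with a difference of 0.00, and CXCL8 read 7.67 and 7.73 with a difference of 0.59. The receptor chain IL1R1 read 5.01 and 5.37 and was lower, with a difference of -1.40, and its partner IL1RAP read 9.09 and 9.23 and was higher by 1.87.

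The upstream windows of TCN1 and IL1B held 1 CpG each in 250 bases. Among the 14 of the 20 genes with a window the median was 20 CpG and 64.3% were CpG-rich, so these windows do not stand for the group. They are shown with CpG in capitals (GRCh38.p14, minus strand, chr11:59866488-59866637 for TCN1 and chr2:112836780-112836929 for IL1B), as the windows of the 2 genes with the largest margin above.
TCN1: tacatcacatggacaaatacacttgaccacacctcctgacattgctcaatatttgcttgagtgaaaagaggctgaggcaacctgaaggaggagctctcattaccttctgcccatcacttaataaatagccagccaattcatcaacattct
IL1B: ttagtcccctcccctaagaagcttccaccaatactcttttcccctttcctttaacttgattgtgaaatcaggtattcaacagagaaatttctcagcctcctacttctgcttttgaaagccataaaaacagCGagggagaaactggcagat

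Other genes of the 20 are known from blood cells, interferon responses or mesothelium. RAC2, a small GTPase of blood cells, read 11.20 and 11.21 against 6.36 to 10.27, and did not pass between lines (limma adjusted p 0.443). MX2, an interferon-induced antiviral GTPase, read 8.20 and 8.55 against 4.29 to 7.29. Calretinin (CALB2), a mesothelial marker, read 9.15 and 9.07 against 5.35 to 8.24 and was the one member of the 15 lists called between lines, with an adjusted p of 0.00908. The other 5 mesothelial markers measured were not called, with a lowest difference of -0.77 in BNC1. Of 10 endothelial and immune markers, PECAM1 (6.71 and 6.91 against a mean of 5.15) was higher, 0 were lower and the differences ran from -0.24 to 1.66. The defining leukocyte markers PTPRC (2.91 and 3.00), CD3E (4.98 and 4.94) and MS4A1 (3.86 and 4.05) lay within the range of the other lines. Of 10 fibroblast markers, THY1 (5.86 and 5.34) was lower and 0 were higher.

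The rest of the 20 outside chromosome 18 had varied functions. MELTF, an iron-binding protein of the cell surface, read 9.92 and 10.01 against 6.51 to 8.82. The secreted ribonuclease RNASE1 read 7.19 and 7.21 against 5.32 to 6.27, and ALDH1L1, a folate enzyme, read 7.03 and 7.01 against 5.38 to 6.20. Those 3 are steady within OVCAR5 and their duplicates differed by less than 0.1. The clock factor NPAS2 read 10.35 and 10.32 against 6.33 to 9.47, and DNMBP, an exchange factor for CDC42, read 9.70 and 9.64 against 5.80 to 8.91. UBE2S, a ubiquitin-conjugating enzyme of the anaphase-promoting complex, read 11.22 and 11.09 against 8.61 to 10.14, with an adjusted p between lines of 0.0361 that did not hold with all 56 arrays. LOC645261 read 5.87 and 5.81 against 3.45 to 4.45. MELTF, NPAS2 and DNMBP did not pass the test between lines, with limma adjusted p of 0.207, 0.498 and 0.698.

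Of the 20 genes, 5 (RAB31, VAPA, NDUFV2, RAB12 and METTL4) lie on chromosome 18. RAB31, a small GTPase of endosomes and the Golgi, read 11.57 and 11.58 against 5.31 to 10.42, and its relative RAB12 read 9.06 and 9.08 against 6.65 to 7.98. VAPA, a membrane protein at contact sites of the endoplasmic reticulum, read 10.51 and 10.47 against 7.88 to 9.34. The mitochondrial complex I subunit NDUFV2 read 10.90 and 10.96 against 7.85 to 9.81, and the methyltransferase METTL4 read 9.87 and 10.06 against 7.43 to 8.93. VAPA, NDUFV2, RAB12 and METTL4 all differed by 1.69 to 1.72. Between lines the limma adjusted p was 0.0443 for VAPA and 0.0479 for METTL4, and neither held with all 56 arrays. RAB31 (0.835), NDUFV2 (0.172) and RAB12 (0.0526) did not pass that test.

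Chromosome 18 had the largest share of higher genes (9.09% of 264) and of lower genes (11.36%) of all chromosomes other than Y, which was not counted. The 2 kinds lay apart. In RefSeq order, 19 of the 36 measured protein-coding genes from USP14 to GNAL were higher, 0 lower and 13 above every other array, with a median difference of 1.13. Of the 203 genes after GNAL, 4 were higher, 29 lower and 11 below every other array, with a median of -0.25. The boundary was set after the values were seen.

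**Figure D5:**
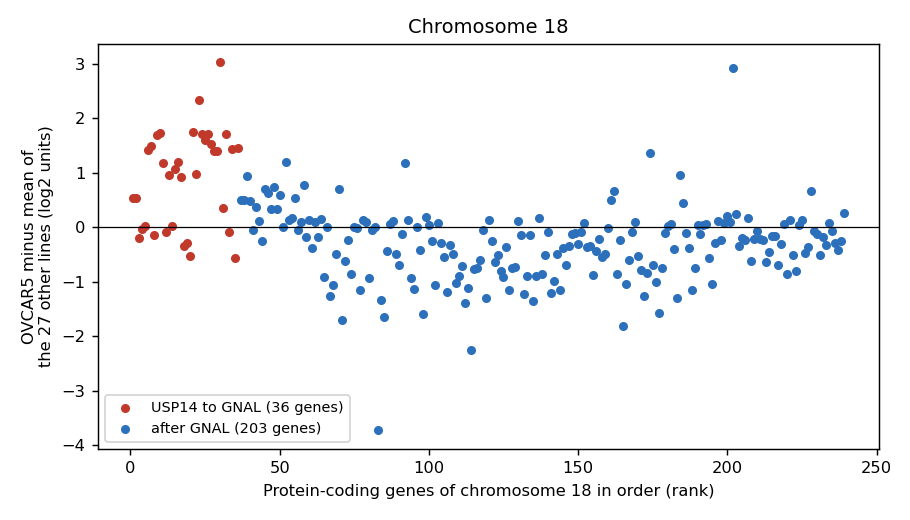
Each point is a protein-coding gene of chromosome 18, placed by its rank in gene order. The vertical axis is the OVCAR5 value minus the mean of the 27 other lines in log2 units. Most of the 36 genes from USP14 to GNAL (red) lie above 0, with a median of 1.13, and most of the 203 that follow (blue) lie below 0, with a median of -0.25.

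Genes on both sides included well known ones, named after their values were seen. In the first stretch, thymidylate synthase (TYMS), the target of fluoropyrimidine drugs, read 11.62 and 11.89 against 9.25 to 11.27. The kinase YES1 read 11.00 and 11.15, second to TYKNU, and was higher by 1.496. In the second stretch, SMAD4, the common mediator of TGF-beta signals, read 8.49 and 8.59. Its mean of 8.54 was the lowest of the 28 lines, all but level with EFO21 at 8.55. The SMAD4 difference of -0.88 was not called. Its partner SMAD2 read 8.29 and 8.40 and ranked 27 with a difference of -0.86, also not called, and the inhibitor SMAD7 read 6.01 and 5.98 and was lower, with a difference of -1.20. CDH2, described above, lies in this stretch. DNA copy number was not analysed here, and its part in these runs was not tested.

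Of 11 genes commonly gained or lost in carcinoma, 2 (18.18%) were higher and 2 (18.18%) lower, beside 3.11% and 3.51% over all genes. MTAP, an enzyme of methionine salvage that lies beside CDKN2A on chromosome 9, read 4.19 and 3.12 against 5.10 to 9.22. Both arrays lay below every other array, and the difference was -3.84 (SE 0.14). HEYC2 (5.10), JHOS2 (5.19) and HEY (5.21) were also low in MTAP, beside a median of 7.74 in the other lines. CDKN2A, which encodes p16, read 6.10 and 5.34 against 5.75 to 10.17, with a median of 8.38, and was lower with a difference of -2.18. OVCA433 (5.75), JHOS2 (5.86), SKOV3 (5.88) and HEYC2 (5.93) were about as low in CDKN2A. CDKN2B, the next gene, read 6.98 and 6.004 and differed by -0.68, which was not called. The duplicates of all 3 genes were farther apart than the median gene's 0.190, with the same array higher each time. The receptor kinases EGFR (9.25 and 9.19) and MET (10.04 and 10.16) were higher, by 1.21 and 1.09, and MET was not called with all 56 arrays.

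In the other lists few members moved. Of 27 HOX cluster genes, which set position along the body axis, HOXB6 (8.27 and 8.47) and HOXB9 (8.73 and 8.83) were higher, by 1.41 and 1.40, and 0 were lower. Of 10 targets of beta-catenin, LEF1 (6.41 and 6.37) was higher by 1.287 and the stem cell receptor LGR5 (3.91 and 4.17) was lower, with a difference of -1.56. Of 18 genes of xenobiotic metabolism and transport, the efflux pump ABCG2 (6.04 and 6.52) was higher by 1.09, while the aldehyde dehydrogenase ALDH1A1 (3.94 and 4.57) and the glucuronosyltransferase UGT2B7 (2.76 and 3.12) were lower, with differences of -1.95 and -1.19. ABCG2 was not called among RPMI lines (0.94) or without OVCAR5 replicate 2 (0.84). The shares called were 7.41% higher for HOX genes, 10.0% higher and 10.0% lower for beta-catenin targets, and 5.56% higher and 11.11% lower for xenobiotic genes. Over all genes they were 3.11% and 3.51%, and in lists this short each share rests on few genes.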

How the data were processed

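Per the labels, RNA was extracted with a miRNeasy kit, amplified, biotinylated and hybridised to Human Gene ST arrays. The authors deposited log2 intensities made with RMA, for which the processing notes name affy 1.42.3, and these values ran from 1.35 to 14.89. Array medians were 5.961 to 6.306, and background signal was not given per probe. Of 28869 probe sets, the 19310 with 1 gene in the platform annotation (19279 matched by gene ID to RefSeq GRCh38.p14) gave 18377 genes; 1752 with several genes and 7807 with none listed were not used. For 685 genes with several probe sets, the brightest on average stood for the gene.

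OVCAR5 was compared with the mean of the 27 other line means with limma 3.58.1 (R 4.3.3), with trend and robust settings, on 53 arrays, and again on 28 line means. Calls needed a Benjamini-Hochberg adjusted p under 0.05 and a difference of at least 1. Precision is limited by the number of arrays. The test was checked on simulated data. Named genes were the 20 above and 12 below every other line with the largest margin, the measured genes of a fixed lineage set, and up to 4 called members of each of 15 lists (249 of 280 genes measured), which gave 89 genes; others are said to be named after their values were seen. The comparison, genes and lists were chosen with earlier results of these data known. Promoter sequences are from RefSeq (GRCh38.p14). Alternatives were all 56 arrays, RPMI lines only, another summary of probe sets, further quantile normalization, leaving out dim genes, HEY and HEYC2 as 1 line, no minimum change, the replicate number as a block, and each array left out.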

Additional observations from a re-analysis of the deposited data

How the results depend on the processing

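No named gene that was called changed direction under any alternative run. Of those not called, CDX1, GATA6, CEACAM5, MUC2, TFF1, TFF2, AGR2, FOLR1, EPCAM and CDH1 changed sign under at least 1 alternative. With all 56 arrays, 11 genes were lower between lines, and 156 lay above and 91 below every other line. Leaving out dim genes gave 15 higher between lines. Further quantile normalization gave 2 gastrointestinal genes higher. Against RPMI lines only, 9 were higher and 2 lower between lines, and 844 lay above and 624 below. With no minimum change, 4101 genes were higher and 3980 lower between arrays, 7 gastrointestinal genes were higher and 11 lower, and 2 Müllerian genes were higher and 18 lower. Line means in place of arrays put 697 above and 584 below, and a margin of at least 1 left 7 and 16. Fewer arrays or line means to exceed raise the counts above and below by construction; the cause of the other moves was not tested.

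Leaving out 1 array in turn gave 509 to 687 genes higher and 636 to 734 lower between arrays, 24 to 47 higher and 17 to 27 lower between lines, 262 to 599 above and 167 to 745 below, 1 to 2 gastrointestinal genes higher and 2 to 4 lower, and 0 Müllerian genes higher and 8 to 9 lower. The highest counts above and below came without OVCAR5 replicate 1, and without replicate 2 they were 512 and 388. Among named genes, METTL4, VAPA, RAB12 and IL1B crossed the threshold between lines when single arrays were left out, and between arrays DPP4, VIM, MUC16, ABCG2 and THY1 (-0.96 without OVCAR5 replicate 2) did.

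With the replicate number as a block, 572 genes were higher and 644 lower, with 1 and 3 gastrointestinal and 0 and 9 Müllerian genes, and no call of a named gene changed. No consistent pairing of arrays by number was seen. Over 300 pairs of lines, the differences of replicate 1 minus replicate 2 correlated from -0.320 to 0.377, with a median of 0.0002 and 61 over 0.1. For 14 of 25 lines this difference correlated positively with the mean difference of the other lines. Runs shared under another numbering would give correlations of either sign, so this check cannot exclude them. The spread of OVCAR5 itself rests on 2 arrays.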

Other observations

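Some single genes outside the lists were named after their high values in OVCAR5 were seen. CD274, which encodes PD-L1, read 8.79 and 9.15 against 3.62 to 8.64, above every other array, with a difference of 3.64 (SE 0.16). The adhesion molecule ICAM1 read 10.30 and 10.18 against 5.36 to 10.10, and the urokinase receptor PLAUR read 10.10 and 10.36 against 6.13 to 9.95, both above every other array. Urokinase itself (PLAU) read 11.61 and 11.74, second to OV56. NT5E, the CD73 ectonucleotidase, read 11.74 and 11.84, first by its mean, with OV7 at 11.72. In none of these did the adjusted p between lines pass, the lowest being 0.581 for CD274.

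HCLS1, CD22, CD52 and CYTH4, chosen in the same way, are best known from blood cells. The defining leukocyte markers PTPRC, CD3E and MS4A1, given above, were not called. HCLS1 read 9.43 and 9.42 against 4.87 to 9.36, with HEYC2, among the lines nearest to OVCAR5, the highest of the others. It did not pass the test between lines (limma adjusted p 0.429). CD22, a B cell lectin, read 7.84 and 8.39 against 4.44 to 7.09, CD52 read 6.70 and 7.003 against 5.38 to 6.33, and CYTH4 read 6.73 and 6.94 against 5.33 to 6.21. The latter 3 passed the test between lines, with limma adjusted p of 0.00142, 0.00259 and 0.00491.

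Histone genes moved in both directions. Of 64 measured, 9 (14.06%) were higher and 7 (10.94%) lower, beside 3.11% and 3.51% over all genes. H3C8 read 4.49 and 3.89 against 5.08 to 8.89 and H3C7 read 5.96 and 5.86 against 5.95 to 9.41, while H1-1 read 9.95 and 9.75 against 5.33 to 9.87. Of 20 measured SNORD116 genes, small nucleolar RNAs of chromosome 15 that are near-identical copies and may share signal, 10 were lower, 0 were higher and the median difference was -1.02. SNORD116-14 read 2.66 and 3.51 against a median of 8.67, with FUOV1 lower still at 2.07. The mitophagy receptor BNIP3 read 4.99 and 5.04 against a median of 9.15, with TYKNU lower at 4.69.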
